A study of Rattus norvegicus with 16 samples.

Results

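miR-21 and miR-146a are microRNAs whose transcription is linked to NF-kB, the transcription factor family of the inflammatory response. They were taken as every non-control spot that the array design names rno-miR-21 or rno-miR-146a, and they are 2 of the 677 rat miRNAs on the array. Both were among the 114 miRNAs that were well above background on at least 4 of 16 arrays and were tested. The arrays were 1-colour Agilent miRNA arrays hybridised with Cy3-labelled total RNA from male Fischer 344 rats, an inbred strain often used in studies of ageing. There were 4 samples in each of 4 groups, which were the extensor digitorum longus (EDL, a fast hindlimb muscle) of old rats, the EDL of young rats, the soleus (a slow postural muscle) of old rats and the soleus of young rats. Old rats were 25 to 28 months of age and young rats 6 to 7 months, with no treatment or genotype named in the labels. The source names carry the numbers 1 to 4 in both old groups and 7 to 10 in both young groups, but do not say that a number is a rat, so p-values measure only the spread between these samples.

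miR-146a is induced by NF-kB after Toll-like or interleukin-1 receptor signalling and represses the adaptors IRAK1 and TRAF6 of the same pathway, a feedback loop described in human and mouse cells. miR-21 is induced by NF-kB, AP-1 and STAT3, represses Pdcd4, and is known in fibroblasts of heart and muscle as a miRNA that rises in fibrosis. Both are made by leukocytes, fibroblasts and vascular cells as well as by muscle cells.

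The mature strands that the probes measure are given first, with the seed (bases 2 to 8 from the 5′ end, which pair with target mRNAs) in capitals, because the seed largely decides which miRNAs share targets.
rno-miR-21-5p: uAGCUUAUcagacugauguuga
rno-miR-146a-5p: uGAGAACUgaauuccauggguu
rno-miR-146b-5p: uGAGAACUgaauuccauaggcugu
The sequences are from RefSeq (build GRCr8), in which the array's name without an arm is the 5p strand. rno-miR-21-5p lies at chr10:71902653-71902674 on the minus strand, and no other mature miRNA among the 724 in that table has its seed. The nearest protein-coding gene is Vmp1. rno-miR-146a-5p lies at chr10:28350053-28350074 on the minus strand, within the span of the long non-coding RNA LOC134480673, and the nearest protein-coding gene is Pttg1. Its seed is shared with rno-miR-146b-5p (chr1:255144874-255144897, plus strand). These relatives are identical over the first 17 bases and differ over the shared length by G18A and U21C, counted from the 5′ end with the miR-146a base first, and how far the probes tell them apart was not tested.

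Each mature strand is cut from one arm of a hairpin, and the opposite arm gives a passenger strand that the array names with a star. The hairpins below have the 5p strand in capitals.
Mir21: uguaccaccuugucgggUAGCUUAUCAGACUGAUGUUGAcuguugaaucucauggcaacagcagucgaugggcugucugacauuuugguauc
Mir146a: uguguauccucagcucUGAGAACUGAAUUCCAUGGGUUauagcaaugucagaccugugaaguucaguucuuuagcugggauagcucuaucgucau
The passenger strands were measured separately.
rno-miR-21-3p: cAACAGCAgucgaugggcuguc
rno-miR-146a-3p: aCCUGUGAaguucaguucuuu

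Most soleus arrays were dimmer than the EDL arrays. The 75th percentile of signal, over the probes well above background on every array, was 290 to 681 on soleus arrays and 589 to 1864 on EDL arrays. Detection (well above background) counted 58 to 85 miRNAs per soleus array and 83 to 138 per EDL array. Signals are therefore given as scaled signal, in which 1 is the 75th percentile of the 95 probes well above background on every array. Of the 5 striated muscle miRNAs listed as a tissue check, miR-1, miR-133a, miR-133b and miR-206 were well above background on all 16 arrays. The other, miR-499, was well above background on 14 arrays, with 2 of 4 in young EDL, and at the floor on 6. All EDL arrays lay on 1 slide, with old and young in separate columns, while old soleus and young soleus each had a slide. Slide and group cannot be told apart in the soleus age comparison or between muscles, nor can column and age in the EDL. No spot was saturated and the number of arrays limits the precision.

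miR-21 was well above background on all 16 arrays by the brighter of its 2 probes, each printed as 10 spots. Its scaled signal was 0.431, 0.486, 0.279 and 0.518 in old EDL 1 to 4, against 0.202, 0.210, 0.167 and 0.265 in young EDL 1 to 4. Every old EDL was above every young EDL, and the lowest old value (old EDL 3) stood close to the highest young value (young EDL 4). In the soleus it was 0.201, 0.180, 0.192 and 0.377 in old soleus 1 to 4, against 0.105, 0.118, 0.139 and 0.139 in young soleus 1 to 4. The soleus groups did not overlap either, and old soleus 4 stood well above the other old soleus samples. The group means were 0.429 ± 0.106 in old EDL and 0.211 ± 0.0405 in young EDL, and 0.238 ± 0.0933 in old soleus and 0.125 ± 0.0166 in young soleus (SD, n = 4 each). The order of the levels was thus old EDL, old soleus, young EDL and young soleus, old soleus overlapped with both of its neighbours, and young soleus did not overlap with young EDL. Before scaling, the deposited signal of this probe was 242 to 949 units in old EDL and 98.2 to 386 in young EDL, and 74.5 to 151 in old soleus and 30.4 to 94.6 in young soleus. Spots of the probe within an array varied by a median CV of 6.47% over the 16 arrays. That CV ran from 2.36% to 16.2% and was highest on young soleus 1.

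**Figure D1:**
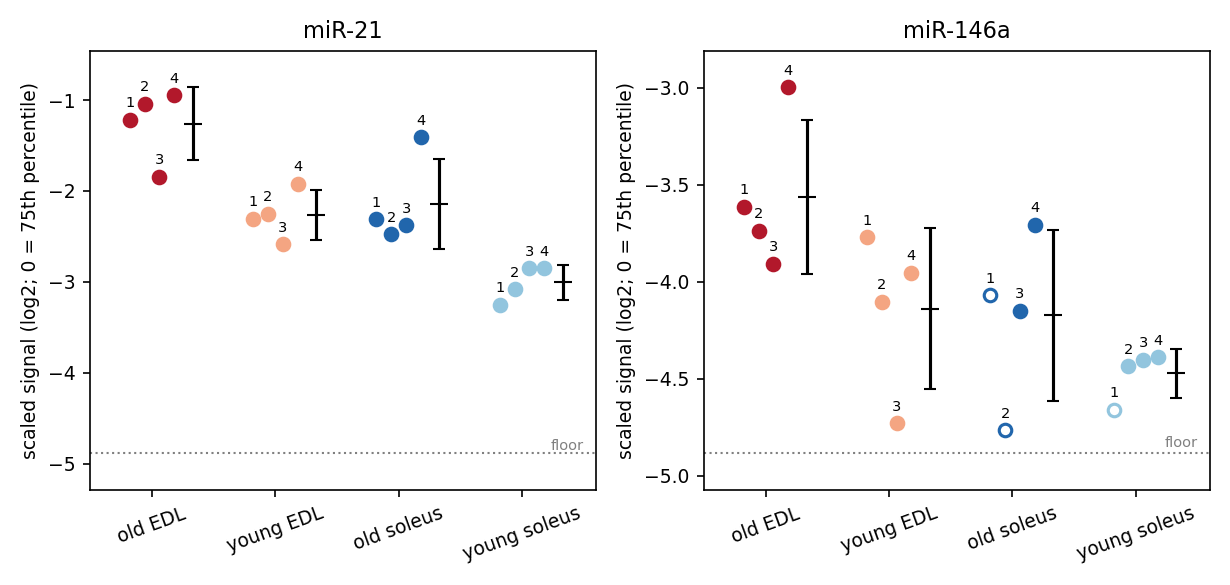
Scaled signal (log2) of miR-21 and miR-146a by the brighter probe of each. A value of 0 is the array's 75th percentile of the 95 probes well above background on every array. Each array is 1 point numbered by sample, open where the probe was not well above background, with the mean ± SD of 4 arrays beside each group. miR-21 of old muscle lies above that of young muscle in both muscles without overlap, while the miR-146a groups overlap and lie near the floor of -4.88.

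The comparison of old with young muscle asked which miRNAs differ with age. miR-21 was 2.0-fold higher in old than in young EDL, a log2 difference of 1.0 (SE 0.25, 95% interval 0.46 to 1.54, limma adjusted p = 0.0218), with 4 of 4 old samples above all young ones. It rose by the test, in a comparison in which 12.3% of the 114 miRNAs were called, 10.5% as higher and 1.75% as lower in old, and in which 12.3% had groups that did not overlap. In the soleus miR-21 was 1.82-fold higher in old than in young rats (0.86 on the log2 scale, SE 0.25, 95% interval 0.32 to 1.40). That difference did not pass (limma adjusted p = 0.0636 over 114 miRNAs), in a comparison in which 3.51% were called, 1.75% as higher and 1.75% as lower, and 21.9% had groups without overlap. The age difference of the soleus minus that of the EDL was -0.14 (95% interval -0.90 to 0.62, limma adjusted p = 0.914), so no difference between muscles in the age change was detectable, and the interval leaves room for a change of either sign. The share called in that test was 0.877%.

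The call of miR-21 in the EDL was lost when any 1 of 6 EDL arrays was left out, with adjusted p between 0.054 and 0.0696 and log2 differences of 0.99 without young EDL 1, 1.01 without young EDL 2, 0.90 without young EDL 3, 0.99 without old EDL 1, 0.93 without old EDL 2 and 0.90 without old EDL 4. The direction was the same under every setting tried in both muscles, and the size was 0.35 with normexp background correction (adjusted p = 0.435) and 1.27 without scaling (adjusted p = 0.417). In the soleus the difference passed under 7 of 17 other settings. Among them were a replicate block, here the slide row (adjusted p = 0.0305), and array brightness as a covariate (0.96, adjusted p = 0.0176). The plot of age differences by setting shows these values.

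**Figure D2:**
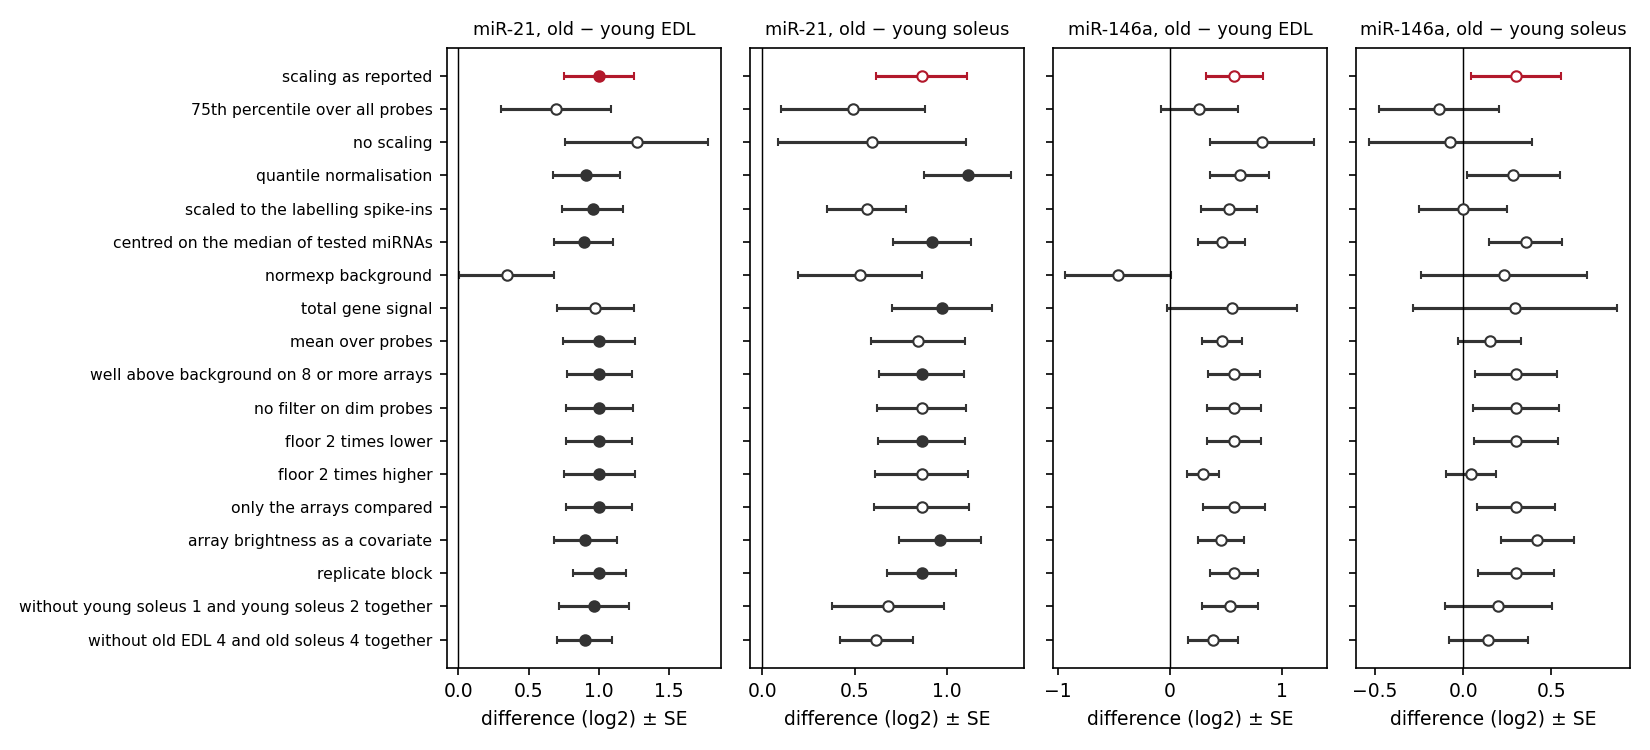
Age differences (old minus young, log2 ± SE) of miR-21 and miR-146a in EDL and soleus as reported (red) and under 17 other settings, filled where the adjusted p was under 0.05. miR-21 stays above 0 in both muscles, with its EDL difference between 0.35 and 1.27, and miR-146a has no filled point.

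Between muscles, miR-21 was lower in the soleus than in the EDL. In old rats the log2 difference was -0.88 (SE 0.25, 95% interval -1.42 to -0.34, limma adjusted p = 0.00892), and old soleus 4 overlapped with the EDL range. In young rats it was -0.74 (SE 0.25, 95% interval -1.28 to -0.20, limma adjusted p = 0.0279), and the groups did not overlap. miR-21 fell by the test in both, beside 53.5% of miRNAs called in old rats (21.1% as higher, 32.5% as lower in soleus) and 43% in young rats (19.3% as higher, 23.7% as lower). Groups without overlap were 52.6% of miRNAs in old rats and 35.1% in young rats, so a difference between the muscles was common among the tested miRNAs. The split of those calls turned with scaling, with 24 higher and 37 lower in old soleus and 22 higher and 27 lower in young soleus as reported, 1 and 62 in old and 2 and 51 in young with the percentile taken over every probe, and 32 and 17 in old and 61 and 3 in young with the labelling spike-ins. With array brightness as a covariate the differences were -0.25 in old rats (adjusted p = 0.79) and -0.31 in young rats (adjusted p = 0.508), and with scaling to the labelling spike-ins they were -0.53 (adjusted p = 0.0655) and -0.14 (adjusted p = 0.661). The median of all tested miRNAs with the spike-ins was 0.03 in old rats and 0.29 in young rats. Relative to it miR-21 was -0.55 and -0.43 in the same order. The call in young rats was also lost without young EDL 1 (-0.76), young EDL 2 (-0.74), young EDL 4 (-0.62), young soleus 1 (-0.64) or young soleus 2 (-0.72). In bulk muscle, fewer cells of a type and less RNA per cell cannot be told apart.

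The second, dimmer probe of miR-21 gave nearly the same differences. Its scaled signal was 0.164 to 0.301 in old EDL and 0.103 to 0.158 in young EDL, and 0.0947 to 0.212 in old soleus and 0.0563 to 0.0809 in young soleus, where 3 of 4 arrays were well above background. Old was again above young without overlap in both muscles. Fitted over all 204 probes that passed the same filter, its old minus young difference was 1.0 in the EDL (limma adjusted p = 0.0278) and 0.83 in the soleus (adjusted p = 0.0798), and its soleus minus EDL difference was -0.99 in old rats (adjusted p = 0.00528) and -0.82 in young rats (adjusted p = 0.0199). The probes measure the same RNA on the same arrays and are not replicates.

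**Figure D3:**
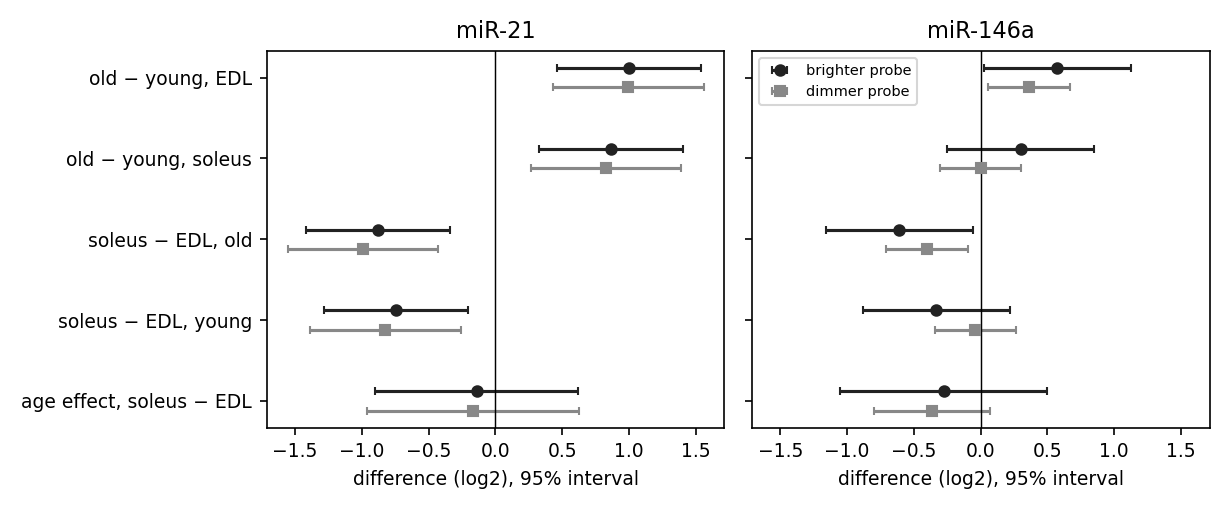
Differences (log2, with 95% intervals) of both probes of miR-21 and of miR-146a in the 5 comparisons, each tested over 204 probes. The miR-21 probes lie on top of each other, at 1.0 each in the EDL age comparison, while the dimmer miR-146a probe was at the floor on all soleus arrays, which sets its soleus age difference to 0.

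miR-146a lay near the floor on many of these arrays, and none of its 5 comparisons passed the test as reported. Its brighter probe was well above background on 13 of 16 arrays, the others being old soleus 1, old soleus 2 and young soleus 1. Its scaled signal was 0.0817, 0.0749, 0.0666 and 0.125 in old EDL 1 to 4, against 0.0732, 0.0582, 0.0377 and 0.0645 in young EDL 1 to 4. Old EDL 4 was the highest of the 16 arrays and young EDL 3 was low, and old EDL 3 lay below young EDL 1, so the groups overlapped. In the soleus it was 0.0595, 0.0367, 0.0563 and 0.0766 in old soleus 1 to 4, against 0.0396, 0.0462, 0.0473 and 0.0477 in young soleus 1 to 4. The old soleus samples spread on both sides of the young ones, which lay close together. The means were 0.0871 ± 0.0261 in old EDL and 0.0584 ± 0.0151 in young EDL, and 0.0573 ± 0.0163 in old soleus and 0.0452 ± 0.00379 in young soleus (SD, n = 4 each). All neighbours in that order overlapped, and young EDL and old soleus had nearly equal means.

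The old minus young difference of miR-146a was 0.58 in the EDL on the log2 scale (SE 0.25, 95% interval 0.03 to 1.12, limma adjusted p = 0.19) and 0.30 in the soleus (SE 0.25, 95% interval -0.25 to 0.85, limma adjusted p = 0.504). The interval of the EDL difference included values as large as that of miR-21, so its width covers an equal change. The age difference of the soleus minus that of the EDL was -0.28 (95% interval -1.05 to 0.50, limma adjusted p = 0.824). The soleus minus EDL difference was -0.61 in old rats (95% interval -1.16 to -0.06, limma adjusted p = 0.0591) and -0.33 in young rats (95% interval -0.88 to 0.22, limma adjusted p = 0.338). The difference in old rats passed with the shared source number as a block (adjusted p = 0.0439) and under 10 of 17 other settings in all. The signs of the muscle differences depended on scaling, with -2.15 in old rats without scaling and 0.15 with array brightness as a covariate, and in young rats 0.27 with scaling to the labelling spike-ins. Without scaling the median of all tested miRNAs in old rats was -1.56, and miR-146a relative to it was -0.59. With spike-in scaling that median in young rats was 0.29, and miR-146a relative to it was -0.02. Normexp background correction turned the EDL age difference to -0.46. The median of all tested miRNAs was then -0.50, and miR-146a relative to it was 0.04.

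The dimmer miR-146a probe was well above background on 7 arrays, all of the EDL. Its scaled signal was 0.0344 to 0.0667 in old EDL and 0.0212 to 0.0368 in young EDL, a log2 difference of 0.36 (limma adjusted p = 0.139 over 204 probes) with 2 of 4 young EDL arrays set to the floor. Without the floor the means on the log2 scale were -4.48 in old EDL and -5.07 in young EDL, a difference of 0.59. In the soleus it was not well above background on any array, and the lowest signals that were, 0.0454 to 0.0688 on old soleus arrays and 0.0360 to 0.0870 on young soleus arrays, were on average above this probe's mean in the EDL, so no fold is given between muscles. Its fitted soleus minus EDL difference in old rats, -0.40 (adjusted p = 0.0263), was measured against the floor. The lowest such signal was 0.0108 to 0.0318 on EDL arrays, so the EDL arrays could show lower levels than the soleus arrays. Spots of 1 array varied by a median CV of 26.0% for this probe and 9.88% for the brighter one.

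The strands related to them were near background. miR-21*, miR-146a* and miR-146b* were well above background on 0 of 16 arrays by any of their probes. Of the hairpins printed above, signal was thus seen from the 5p arm and not from the 3p arm. miR-146b, which shares the miR-146a seed, was well above background on old EDL 2 and old EDL 4 by its brighter probe. Its scaled signal was 0.0108 to 0.0225 in old EDL and 0.00748 to 0.0108 in young EDL, and 0.00682 to 0.0258 in old soleus and 0.00996 to 0.0152 in young soleus. These values were below the floor of 0.0339, and with 2 arrays well above background miR-146b did not reach the 4 needed for a test.

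Other miRNAs linked to NF-kB showed no age call, beside 12.3% of all 114 in the EDL and 3.51% in the soleus. The list is too short to set this apart from those shares. Of 8 listed, 3 were tested, namely miR-125b-5p, miR-181b and miR-223, and miR-155 was not analysed here. miR-223, a myeloid miRNA that restrains inflammasome signalling, differed between old and young by 0.37 in the EDL (limma adjusted p = 0.392) and 0.38 in the soleus (adjusted p = 0.314). miR-125b-5p, which represses the message of tumour necrosis factor in mouse macrophages, differed by -0.10 (adjusted p = 0.379) and -0.15 (adjusted p = 0.125). miR-181b was at the floor on all arrays, which fixed its differences at 0, so it could not be called. Before the floor its mean was 0.0214 in old EDL and 0.0272 in young EDL, well above background on 3 of 4 arrays in each. The median of the 3 was 0 in both muscles, which is the floored value of miR-181b, and that of all 114 was 0. Between muscles, miR-223 rose in the soleus, by 0.96 in old rats (adjusted p = 0.00358) and 0.95 in young rats (adjusted p = 0.00544), the opposite sign to miR-21. The other tested leukocyte miRNA, miR-150, which is not in this list, was called lower in soleus (-0.73 in old rats, -0.31 in young rats). Of all 114, 53.5% were called between muscles in old rats and 43% in young rats. miR-125b-5p fell by 0.49 (adjusted p = 2.23e-05) and by 0.44 (adjusted p = 7.45e-05).

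Among 11 tested miRNAs linked to fibrosis other than miR-21, 4 rose with age in the EDL and 0 fell, beside 10.5% higher and 1.75% lower among all 114. They were miR-29a (0.61, limma adjusted p = 0.00342), miR-29b (1.08, adjusted p = 0.00196) and miR-29c (0.59, adjusted p = 0.0243), which are of the same family and repress collagen messages, and miR-140* (0.62, adjusted p = 0.00735), the star strand of a cartilage miRNA. EDL differences in the list ran from -0.26 to 1.08. The list was chosen with earlier results of these data known, so its counts are a description. Fibrosis itself was not measured, and its part in these differences or in that of miR-21 was not tested. In the soleus miR-29b (0.76) and miR-214 (0.73), a miRNA of mesenchymal cells, rose and miR-30c (-0.44) fell, each at an adjusted p of 0.0384, beside 1.75% of all 114 in each direction. The list's median was 0 in the EDL, which is the value of miR-140 at the floor on all arrays, and 0.16 in the soleus, against 0 over all 114 in both.

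**Figure D4:**
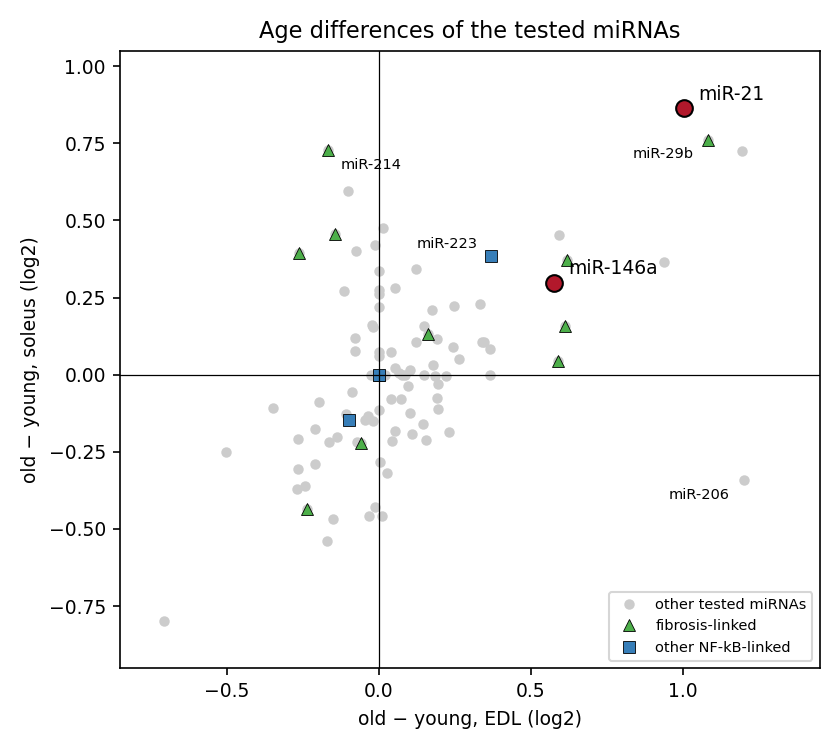
Old minus young difference (log2) in soleus against that in EDL for each of the 114 tested miRNAs, with miR-21 and miR-146a in red, fibrosis-linked miRNAs as triangles and other NF-kB-linked miRNAs as squares. miR-21, at 1.0 in the EDL and 0.86 in the soleus, and miR-29b, at 1.08 and 0.76, lie at the upper right, and miR-146a, at 0.58 and 0.30, lies closer to 0.

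Markers of cells that also make miR-21 and miR-146a were measured beside them, and their part in the results was not tested. Of 6 leukocyte markers 2 were tested (miR-223 and miR-150), and 0 were called with age in either muscle, beside 12.3% of all miRNAs in the EDL and 3.51% in the soleus. The scaled signal of these 2 summed to 0.283 to 0.341 in old EDL and 0.254 to 0.283 in young EDL, and to 0.254 to 0.307 in old soleus and 0.249 to 0.310 in young soleus, with overlap in both muscles. The overlap of the 2-marker sums in the EDL was narrow, from 0.2826 to 0.2830. With the undetected markers added, the sum over the 5 on the array was 0.301 to 0.372 in old EDL and 0.267 to 0.298 in young EDL, without overlap. In the soleus the 5-marker sum was 0.269 to 0.376 in old rats and 0.261 to 0.336 in young rats, with overlap. Single tested miRNAs without overlap were 12.3% in the EDL age comparison. Of the other leukocyte markers on the array, miR-142-5p was well above background on 0 arrays, and miR-142-3p and miR-342-3p on 1 each. The 5 mesenchymal markers summed to 0.391 to 0.567 in old EDL and 0.404 to 0.629 in young EDL, and to 0.381 to 0.462 in old soleus and 0.277 to 0.358 in young soleus, where the groups did not overlap. Single tested miRNAs without overlap were 21.9% in the soleus age comparison. The largest part of the sum was miR-199a-3p, with a mean of 0.205 in old soleus and 0.156 in young soleus. The 5 striated muscle miRNAs summed to 54.0 to 60.8 in old EDL and 46.7 to 59.8 in young EDL, with overlap. In the soleus they summed to 54.4 to 64.4 in old rats and 68.1 to 79.8 in young rats, without overlap. With age 0 of them were called in the soleus and 1 was called higher in the EDL, beside 3.51% called and 10.5% called higher among all 114. Of 3 erythroid markers, miR-451 and miR-144 were on the array and summed to 0.0227 to 0.246 in old EDL and 0.0176 to 0.0356 in young EDL, and to 0.0163 to 0.123 in old soleus and 0.0247 to 0.0293 in young soleus, with miR-144 not well above background on any array. Of vascular markers, both smooth muscle and pericyte miRNAs (miR-143 and miR-145) were called lower in soleus than in EDL in old rats (-0.74 and -0.79) and in young rats (-0.37 and -0.67). Of all 114, 32.5% in old rats and 23.7% in young rats were called lower in soleus, and 21.1% and 19.3% higher. Of the 5 mesenchymal markers, 1 was called lower in soleus in old rats and 3 in young rats, and 0 were called higher. Of the 2 tested leukocyte markers, 1 was called higher (miR-223) and 1 lower (miR-150) at each age. The sum of miR-143 and miR-145 was 0.410 to 0.528 in old soleus and 0.641 to 0.849 in old EDL, and 0.473 to 0.597 in young soleus and 0.621 to 0.836 in young EDL, without overlap at either age. Single tested miRNAs without overlap between muscles were 52.6% in old rats and 35.1% in young rats. The endothelial miR-126 was called lower in old soleus (-0.48, limma adjusted p = 0.00654) and was not called in young soleus (-0.33, adjusted p = 0.0532), and miR-126* was at the floor on all arrays.

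The miRNAs whose pattern over samples was most like that of each member were chosen from 77 candidates by the smaller of 2 Pearson correlations, one over the 8 soleus arrays and one over the 8 EDL arrays. For miR-21 they were miR-92a (r = 0.951 in soleus and 0.907 in EDL), let-7d (0.840 and 0.944 in the same order), miR-10a-5p (0.830, 0.858), miR-140* (0.827, 0.951) and miR-146a (0.801, 0.815). For miR-146a they were miR-10a-5p (0.924, 0.937), miR-21, miR-15b (0.802, 0.758), miR-92a (0.736, 0.878) and miR-151 (0.713, 0.785). miR-21 and miR-146a were thus in each other's list, and old EDL 4 and old soleus 4 were the highest array of their muscle's old group for both. These 8 points share age groups, slides and scaling, and the correlations are a description. Array brightness correlated with miR-21 by -0.13 in the soleus and by 0.59 in the EDL, and with miR-146a by 0.03 in the soleus and by 0.80 in the EDL (n = 8 each).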

How the data were processed

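Each sample was hybridised to 1 array. Per the labels' protocols, total RNA was labelled with Cy3. The deposited scanner files hold spot intensity made with Agilent Feature Extraction (version 10.7 per the submitters' processing notes, 10.7.3.1 per the file headers, protocol miRNA_107_Sep09). The software's processed intensity (below 0 for some spots; 13540 non-control spots, 1644 probes) was used here. Outlier-flagged spots (3.03%) were left out and spots averaged per probe. Signals were divided by each array's 75th percentile of the 95 probes well above background on every array, floored at 0.0339 and converted to log2. The brightest probe by mean represented a miRNA, if well above background on 4 or more arrays. Of the 114 tested, 11 were at the floor on all arrays, which fixed their differences at 0, and they stay in every share. With a floor 2 times lower the median EDL age difference of all tested miRNAs was 0.05. One limma model (limma 3.58.1, R 4.3.3) of 4 group means used all 16 arrays, with Benjamini-Hochberg adjustment at 0.05 over 114 miRNAs within each comparison, and was tested on simulated data. Figures used Python 3.11.15 and matplotlib 3.10.9.

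No pair of arrays held identical probe values. Named miRNAs are the members, their passenger strands and seed relative, the members of fixed lists and the 5 miRNAs closest in pattern. miR-590-5p, also in that rule, was not analysed here. The members and lists were chosen with earlier results of these data known. Alternatives covered scaling, background correction (normexp with offset 50 on median signals), filters, floor, probe choice, brightness, replicate numbers and leaving out arrays. Samples with the same source number in soleus and EDL deviated together (r over 0.1) in 3 of 8 pairs (r from -0.61 to 0.65). Old and young samples with the same title number, which is also the slide row, did so in 6 of 8 pairs (r from -0.29 to 0.80, highest with their own number in 3). Not every pair passed in either case and no label says what a number marks, so the block is an alternative. In the old minus young comparisons the replicate block was the title number, that is the slide row. In the comparisons that involve both muscles it was the source number.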

Additional observations from a re-analysis of the deposited data

Results flagged for a closer look

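miR-21 of old soleus 4 stood far from the other old soleus samples. Its gap to the nearest of them was 0.846 of the group's whole range on the log2 scale, at 0.377 against 0.180 to 0.201 scaled signal in the other 3. Without that array the old minus young soleus difference of miR-21 was 0.62 on the log2 scale, and the groups did not overlap.

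miR-146a of young soleus 1 stood below the other young soleus samples, with a gap of 0.831 of the range, at 0.0396 against 0.0462 to 0.0477 in the other 3. It was not well above background on that array, which also had the lowest 75th percentile of the 16 (290). Such gaps appear by chance in about 1 in 20 groups, and 8 groups were examined.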

How the results depend on the processing

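Each result was recomputed under 17 other settings and with each array left out in turn. Leaving out old EDL 4 and old soleus 4 together, or young soleus 1 and young soleus 2 together, was chosen after seeing the data. The old minus young differences of miR-21 and its soleus minus EDL differences kept their sign under all of these. The cause of the changes below was not tested. Dim signal limits miR-146a, which was near the floor in the soleus. In the EDL age comparison the median of all tested miRNAs was -0.23 with a percentile taken over every probe, 0.28 without scaling, -0.50 with normexp, -0.11 with median centring and 0.12 with total gene signal, and relative to it miR-21 was higher in old EDL by 0.93, 0.99, 0.85, 1.0 and 0.86 in the same order.

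The old minus young EDL difference of miR-21 missed the threshold with a percentile taken over every probe (0.69), without scaling (1.27), with normexp (0.35) and with the software's total gene signal (0.98). Its soleus age difference passed with quantile normalisation (1.12), median centring (0.92), total gene signal (0.97), a brightness covariate (0.96) and, at 0.86, with a filter of 8 arrays, a lower floor or a replicate block (adjusted p = 0.0305). Its age difference between muscles changed sign with quantile normalisation (0.20), median centring (0.028), normexp (0.18) and the brightness covariate (0.059). Its soleus minus EDL difference missed the threshold with spike-in scaling (-0.53 in old rats, -0.14 in young), normexp (-0.43 in old, -0.61 in young), the brightness covariate (-0.25 in old, -0.31 in young) and, in young rats, without young soleus 1 and 2 (-0.60).

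For miR-146a, sign changes were -0.46 (EDL age) and 0.69 (age difference between muscles) with normexp, and -0.14 (percentile over every probe) and -0.073 (no scaling) for soleus age. Relative to the median of all tested miRNAs under the same setting, these were 0.04, 0.12, 0.10 and 0.10 in the same order. Its soleus minus EDL difference turned to 0.27 with spike-in scaling and 0.19 with the brightness covariate in young rats, and to 0.24 with normexp and 0.15 with the brightness covariate in old rats. The median of all tested miRNAs was 0.29 with spike-in scaling in young rats and 0.14 with normexp in old rats. Relative to it miR-146a was -0.02 and 0.09 in the same order. The soleus minus EDL difference of miR-146a passed with a percentile taken over every probe (-1.68 in old, -1.28 in young) and without scaling (-2.15 in old, -1.25 in young). Under these settings the median of all tested miRNAs was -1.04 and -1.56 in old rats, and -0.85 and -0.91 in young rats. Relative to it miR-146a was -0.64 and -0.59 in old rats, and -0.43 and -0.34 in young rats. In old rats the miR-146a difference also passed with quantile normalisation (-0.82), median centring (-0.60), total gene signal (-1.50), the mean over probes (-0.51) and, at -0.61, with a filter of 8 arrays, no filter, a lower floor or a replicate block (adjusted p = 0.0439).

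With 1 array left out, miR-21 differed by 0.90 to 1.20 (EDL age), 0.62 to 0.97 (soleus age, passing without old EDL 3 at 0.86), -0.39 to -0.03 (between muscles), -1.13 to -0.77 (old rats, soleus minus EDL) and -0.85 to -0.62 (young rats). miR-146a differed by 0.38 to 0.70, 0.14 to 0.50, -0.43 to -0.08, -0.76 to -0.41 and -0.53 to -0.21 in the same order, passing in old rats without young EDL 3 (-0.61), old EDL 3 (-0.72), young soleus 1 (-0.61) or old soleus 4 (-0.76).

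The number of miRNAs called in the EDL age comparison (14) was 0 with a percentile taken over every probe or with no scaling, 22 with quantile normalisation (10 higher and 12 lower, against 12 and 2 as reported), 8 with spike-in scaling, 1 with normexp and 6 with total gene signal, and 7 to 16 with 1 array left out. The soleus age count (4) was 0 with a percentile taken over every probe, with no scaling and with normexp, 12 with quantile normalisation (4 higher), 39 with spike-in scaling (1 higher), 8 with median centring (7 higher), 10 (2 higher) with total gene signal, 1 with the mean over probes, 12 with a filter of 8 arrays, 8 with a lower and 1 with a higher floor, 16 with the brightness covariate, 13 with the replicate block and 29 without young soleus 1 and 2. It was 1 to 34 with 1 array left out, the 34 without young soleus 1. The count for the age difference between muscles (1) was 0 with a percentile taken over every probe or with no scaling, 3 with quantile normalisation and median centring, 29 with spike-in scaling, 2 with either floor, the brightness covariate or the replicate block, 11 without young soleus 1 and 2, and 1 to 7 with 1 array left out. Between muscles the count in young rats (49) was 5 with normexp and 32 with the brightness covariate, and in old rats (61) it was 93 without scaling, 7 with normexp and 24 with the brightness covariate, with 40 to 53 and 53 to 66 when 1 array was left out. The replicate block moved no other count by over 1.5 times, and of the same-numbered arrays in soleus and EDL, 1 of 8 correlated best with its own number.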
